A study of Mus musculus with 212 samples.

Results

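The miR-379 to miR-410 cluster is a run of microRNA hairpins in the imprinted Dlk1 to Dio3 domain of mouse chromosome 12. Its members were taken by name: every feature of the deposited miRNA table, from either arm of a hairpin, whose name holds 1 of 32 listed miRNA numbers. This gave 64 miRNA arms from 34 hairpins, of 881 features in all. Of the 32 numbers, 31 had at least 1 feature. The table holds 1 normalized signal for each of 59 strains of the LXS recombinant inbred panel, bred from a pair of parental lines, ILS (Inbred Long Sleep) and its short-sleep counterpart ISS. All mice were untreated, and small RNA came from the right brain hemisphere. The labels give no age. Behind the 59 strains stood 196 labelled libraries, 2 to 7 a strain from 2 or 3 animals, spread over 5 sequencing batches. A strain value is the authors' value with no error of its own, so the strain was the unit of every test. Another library names LXS90 in 1 label and LXS9 in another, and was placed in no group. A separate mRNA table held 6 usable profiles each for ILS, ISS and LXS80, and 5 for LXS41.

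A miRNA hairpin is cut from a longer primary transcript, and either arm of the remaining duplex (5p or 3p) can be loaded into Argonaute to repress mRNAs. Pairing with targets rests mainly on the seed, bases 2 to 8. Genes of noncoding RNA in this domain, among them the miRNA host transcript Mirg, are expressed from the maternal chromosome, while Dlk1, Rtl1 and Dio3 are expressed from the paternal one. The cluster is highly expressed in brain, its transcription in neurons responds to activity through the factor Mef2, and its member miR-134 is known for limiting the growth of dendritic spines.

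The hairpins lie within 34.7 kb at chr12:109709060-109743795 of GRCm38.p6, by RefSeq. Except for miR-299b, which lies on the opposite strand within miR-299a, all 34 are on the plus strand. A RefSeq mature sequence was matched for 60 of the 64 arms, with lengths from 18 to 25 bases. The 5 arms that carried most of the signal are shown first, 5′ to 3′, with the seed in capitals.
miR-541-5p: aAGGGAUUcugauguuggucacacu
miR-410-3p: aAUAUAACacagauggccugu
miR-381-3p: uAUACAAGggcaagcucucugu
miR-411-5p: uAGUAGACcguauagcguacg
miR-300-3p: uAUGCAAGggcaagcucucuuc

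These 5 arms had 5 different seeds. Compared from the 5′ end of miR-300-3p, miR-381-3p differed by G4A, U21G and C22U, and the first of these lies within the seed. Over the 60 arms there were 57 distinct seeds, and 3 of them were each shared by a pair of arms. The pairs are shown because their arms are also nearly the same in sequence, or overlap, and reads could be counted for either arm.
miR-379-3p: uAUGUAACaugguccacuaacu
miR-411-3p: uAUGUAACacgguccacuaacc
miR-376b-5p: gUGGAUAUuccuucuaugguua
miR-376c-5p: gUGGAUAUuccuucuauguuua
miR-299a-3p: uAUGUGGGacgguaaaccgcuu
miR-299b-3p: uAUGUGGGacgguaaacc

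From miR-376b-5p to miR-376c-5p there was 1 substitution, G19U, and from miR-379-3p to miR-411-3p there were 2, U10C and U22C. Both arms of miR-299b lie whole inside the arms of miR-299a. The sources used here do not say how reads that fit both were assigned, so the levels of these pairs are uncertain.

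The cluster carried 4.33% (LXS115) to 7.11% (LXS100) of all normalized signal, with a median over strains of 5.77%. Most of it came from few arms. The 5 arms printed first held 86.2% to 91.35% of the cluster's signal in a strain, with a median of 88.86%. Levels below are lowest, median and highest over the 59 strains in normalized signal. They compare signal between arms of similar length, and how well the library method captures each arm was not measured.

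miR-541-5p ran from 104501 (LXS86) through 181419 to 301396 (LXS90). miR-410-3p, at the far end of the cluster, ran from 124383 (LXS23) through 163463 to 247173 (LXS49). miR-381-3p ran from 103251 (LXS72) through 145483 to 208476 (LXS94). The ranges of these 3 arms overlapped, and their order was not the same in all strains.

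miR-411-5p ran from 66683 (LXS8) through 100891 to 133485 (LXS99). miR-300-3p ran from 78731 (LXS90) through 95098 to 135015 (LXS94). These 2 neighbours in level also overlapped. A wide gap then separated them from miR-487b-3p, with a median of 12687 and a highest value of 15247.

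Of the 64 arms, 24 had a mean of at least 1000 and 46 a mean of at least 100. Below the leading 5 stood miR-487b-3p, miR-409-3p (median 10605), miR-369-3p (8268), miR-668-3p (6294), miR-380-3p (5351) and miR-369-5p (4609). The other 13 arms of this class had medians from 1047 (miR-154-5p) to 3917 (miR-382-5p). At the low end, 7 arms had a mean under 10 and were not tested: both 5p arms of miR-299a and miR-299b, miR-495-5p, miR-376c-5p, miR-668-5p, miR-496a-5p and miR-412-3p. Position along the cluster did not order the levels: miR-411, near its start, and miR-410, at its end, were both among the 5 highest.

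**Figure D1:**
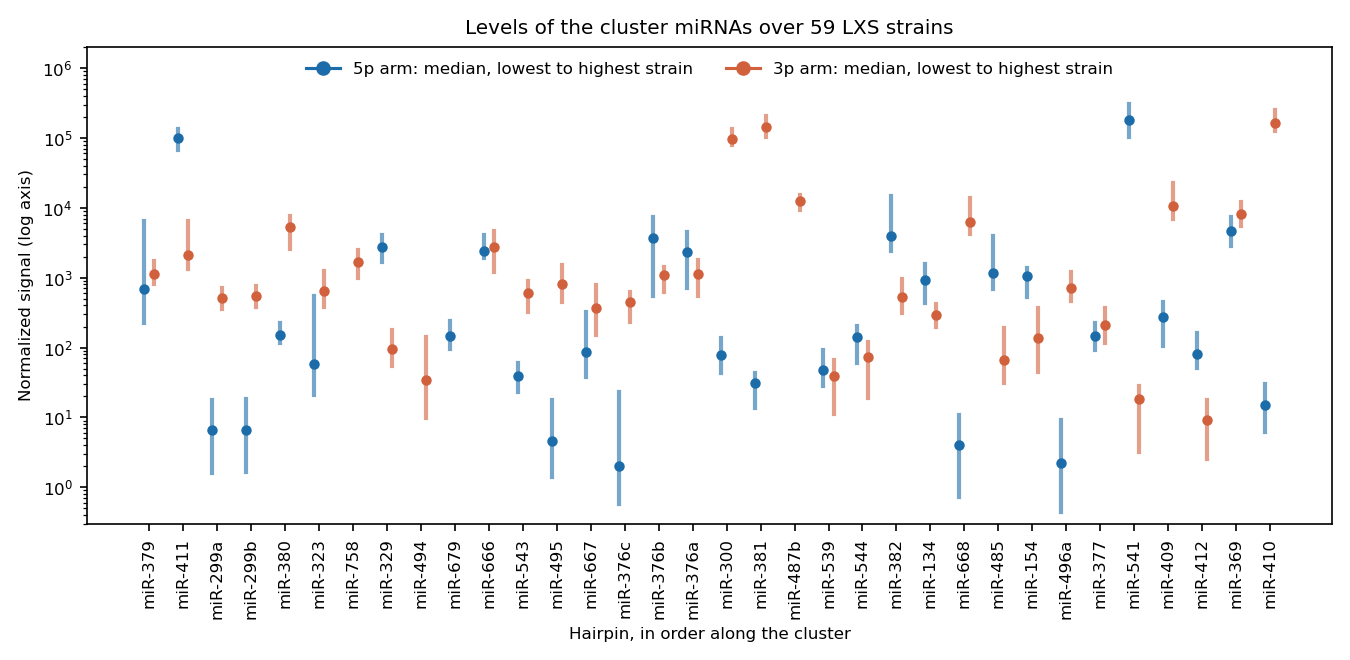
Normalized signal (log axis) of each arm of the 34 hairpins in their order along the cluster, with a point at the median and a line from the lowest to the highest of 59 strains, 5p arms in blue and 3p arms in orange. The 5 leading arms stand far above the rest, with medians from 95098 to 181419, and the lines of miR-379-5p, miR-323-5p and miR-376b-5p are long compared with their neighbours.

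In most hairpins the same arm was the higher in all strains, though the size of its lead varied. Of 30 hairpins with both arms in the table, the 5p arm was the higher in all 59 strains for 9 and the 3p arm in all strains for 15. The most unequal by its median was miR-410, whose log2 ratio of 5p to 3p ran from -14.53 through a median of -13.38 to -12.55. In the opposite direction, miR-541 ran from 12.21 through 13.19 to 15.84. Both are hairpins of the 5 leading arms. Of other hairpins that kept their higher arm, miR-323 ran from -4.71 to -0.78 and miR-382 from 2.04 to 5.25. The range was narrower for miR-544, from 0.36 to 1.65.

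The other 6 hairpins changed their higher arm between strains. For miR-376b the 5p arm was higher in 52 strains and the 3p arm in 7, with a log2 ratio from -1.18 (LXS100) through 1.65 to 2.81 (LXS23). All 7 (LXS100, LXS103, LXS24, LXS25, LXS34, LXS50 and LXS66) had most of their libraries in batch 3. Strain and batch cannot be told apart in this change of arm. For miR-379 the 5p arm was higher in 7 strains and the 3p arm in 52, with a ratio from -2.34 (LXS41) through -0.66 to 2.29 (LXS110). The arms of miR-666, with means of 2585 and 2692, were close to equal, and the 5p arm was higher in 28 strains. In the batch fit given below, batch 5 minus batch 3 was 1.14 (log2) for miR-666-3p and -0.17 for miR-666-5p. The rest were miR-539 (5p higher in 33 strains), miR-377 (13) and miR-376a (58). In miR-376b and miR-379 the 5p arm varied more than the 3p arm: miR-376b-3p ranged only from 632 to 1428 and miR-379-3p from 804 to 1757. Among the 15 hairpins with a mean of at least 100 in both arms, all but miR-376b, miR-379, miR-376a, miR-666 and miR-377 kept 1 higher arm in all strains. The median log2 ratio was 5.58 for miR-411, 4.89 for miR-329, 3.00 for miR-154, 2.73 for miR-382 and 1.63 for miR-134, where the 5p arm led. It was -0.77 for miR-369, -1.98 for miR-667, -3.13 for miR-323, -5.09 for miR-380 and -5.13 for miR-409, where the 3p arm led.

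Levels of most members were related to sequencing batch. In a limma F test on log2(signal + 1), with batch given per strain as the fraction of its libraries sequenced there, 52 of 57 arms tested passed at an adjusted p under 0.05. Over all 647 features the share was 86.7%, so the cluster's count was near the background. Batch shares accounted for a median of 40.5% of the variance of a member over strains, beside 41.0% over all features. Strains differ between batches, so for a given strain its genotype and its batch cannot be told apart.

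The largest batch F of the cluster was that of miR-376b-5p (F = 65.7, adjusted p = 5.66e-19). Where most libraries of a strain were in batch 3, its values ran from 538 through a median of 1018 to 1832 (16 strains). In batch 5 they ran from 3410 through 4705 to 7477 (18 strains), in batch 4 from 3717 through 4285 to 5985 (9 strains), and in batch 1 from 3877 through 4284 to 5017 (4 strains). Batch 3 did not overlap with these 3 batches, while batch 2 spanned from 1148 to 4810 (12 strains). The fitted difference between batch 5 and batch 3 was 3.05 ± 0.22 on the log2 scale (SE). Strains sequenced wholly in 1 batch showed the same: 601, 882 and 637 in the 3 strains of batch 3, and 3410 to 7014 in the 8 of batch 5.

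miR-323-5p went the other way. Its medians in batches 1 to 5 were 44.07, 173, 221.7, 35.3 and 40.9, and the fitted difference between batch 5 and batch 3 was -2.36 ± 0.33 (adjusted p = 9.45e-15). Batches 2 and 3 reached 324 and 539, while no strain of batches 1 and 4 passed 51.3 and the highest of batch 5 was 106. The lowest strain of batch 2 was at 58.9 and of batch 3 at 80.7, so both overlapped with batch 5.

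miR-485-5p had medians of 1118, 2541, 1952, 843 and 849 in batches 1 to 5, with a difference of -1.16 ± 0.20 between batch 5 and batch 3 (adjusted p = 1.77e-13). miR-409-3p, the seventh arm by mean signal, had medians of 10831, 14734, 15246, 8364 and 8752 and a difference of -0.93 ± 0.13 (adjusted p = 6.52e-14). miR-543-3p had medians of 774, 714, 773, 519 and 441 and a difference of -0.99 ± 0.10 (adjusted p = 1.27e-15). For miR-409-3p and miR-543-3p, every strain of batch 3 was above every strain of batch 5.

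Others with a difference over 1 on the log2 scale were miR-376a-5p (1.501 ± 0.15), miR-666-3p (1.14 ± 0.13), miR-667-5p (-1.22 ± 0.22) and miR-485-3p (-1.21 ± 0.21). Among the named arms with smaller differences, miR-679-5p was at -0.53 ± 0.10, miR-134-3p at -0.32 ± 0.08 and miR-323-3p at -0.90 ± 0.14. In all, 26 members were fitted higher in batch 5 than in batch 3 and 31 lower. The median size of the difference was 0.403 in the cluster and 0.506 over all features.

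Arms of 1 hairpin could differ in size or sign. miR-376b-5p differed by 3.05 between batches 5 and 3 and miR-376b-3p by 0.16 ± 0.12, and miR-666-5p by -0.17 ± 0.10 where miR-666-3p differed by 1.14. Both arms of miR-323 and of miR-485 were lower in batch 5, and both arms of miR-376a were fitted higher. Across 53 members with a sequence, Pearson's r between GC content and the batch difference was -0.394, beside -0.235 across 533 features of the table. These are descriptions across miRNAs that share the same strains and batches.

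The 5 arms that did not pass were miR-134-5p (adjusted p = 0.0508), miR-410-5p (0.121), miR-299b-3p (0.304), miR-299a-3p (0.356) and miR-380-5p (0.677). miR-380-5p had a difference of 0.00 ± 0.11 between batches 5 and 3, and its strains ran only from 114 to 228. Among the 5 leading arms, the adjusted p was 4.48e-07 for miR-381-3p, 1.01e-05 for miR-541-5p, 0.000268 for miR-410-3p, 0.00289 for miR-300-3p and 0.00302 for miR-411-5p. Their fitted differences between batches 5 and 3 ran from -0.55 ± 0.12 for miR-541-5p to 0.05 ± 0.10 for miR-411-5p.

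**Figure D2:**
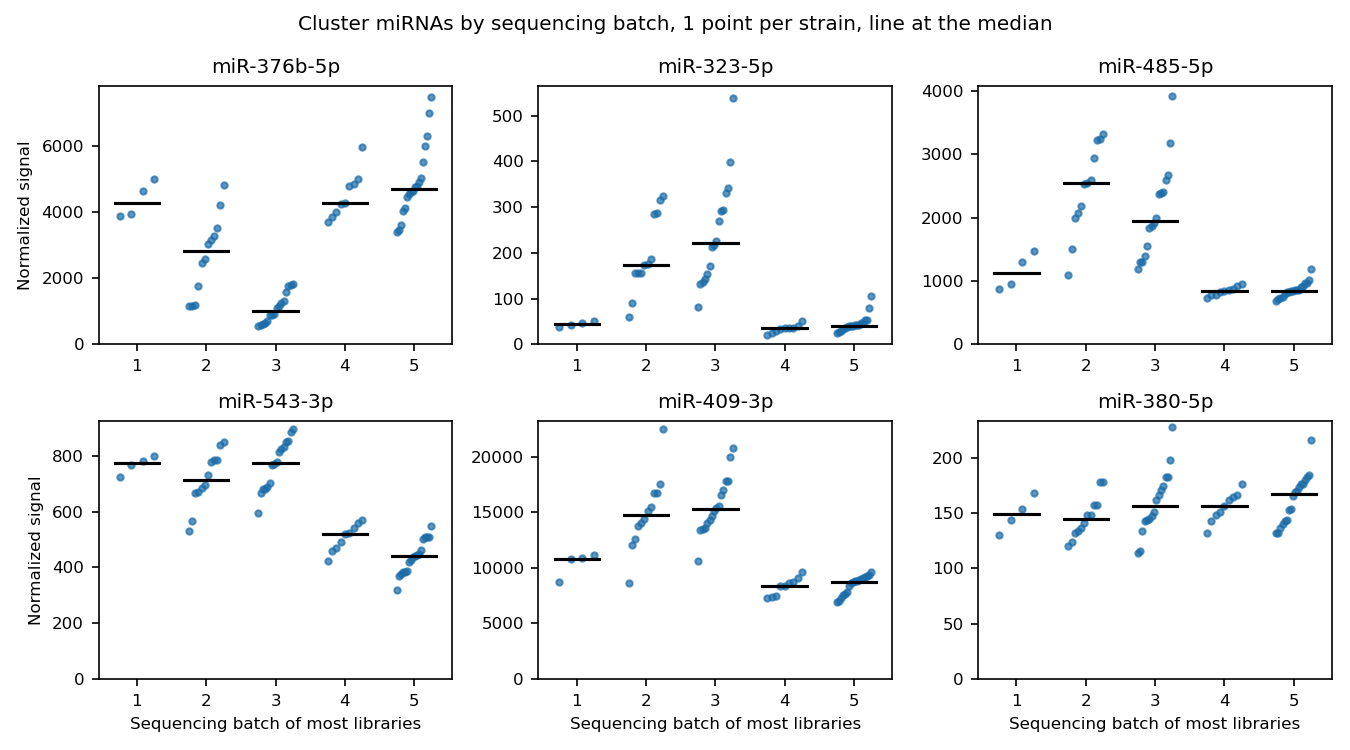
Normalized signal of 6 members in each strain (points), placed by the sequencing batch that holds most of the strain's libraries, with a line at the batch median. miR-376b-5p is low in batch 3, miR-323-5p and miR-485-5p are high in batches 2 and 3, and miR-380-5p has similar medians in all 5 batches.

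The summed share of the cluster also followed batch. Its median was 5.08% in strains with most libraries in batch 1, 6.69% in batch 2, 6.36% in batch 3, 5.36% in batch 4 and 5.19% in batch 5. Batches 2 and 3 began at 5.98% and 5.75%, and batches 4 and 5 ended at 5.68% and 5.80%. Batch 2 stood above batches 4 and 5 with no overlap, and batch 3 overlapped with batch 5 but not with batch 4.

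The labels give some strains the word HIGH (8 of the 59), MED (9) or LOW (10), without saying what was high or low, and 32 strains have none. Of the 27 tagged strains, 25 had most of their libraries in batch 2 or 3 and 0 in batch 4 or 5. Cluster share was 5.78% to 7.01% with a median of 6.49% in HIGH strains, and 5.66% to 6.94% with a median of 6.25% in LOW strains. These ranges overlap almost fully.

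No member differed between HIGH and LOW strains at an adjusted p under 0.05, by limma with batch shares as covariates: 0 of 57 were higher and 0 lower, beside 0.0% of all 647 features in each direction. At an unadjusted p under 0.05 there were 3 higher and 0 lower members of 57, beside 15 higher and 11 lower of all 647 features. Fitted differences ran from -0.36 (miR-541-3p) to 0.40 (miR-410-5p), with a median of -0.04, beside 0.01 over all features.

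The smallest unadjusted p was that of miR-381-3p, 1 of the 5 leading arms, at 0.0145 (adjusted p = 0.861). Its values ran from 141698 through 195474 to 208476 in HIGH strains and from 127943 through 160702 to 190991 in LOW strains, a fitted difference of 0.21 ± 0.08 on the log2 scale. The groups overlapped. miR-410-5p had 14.4 through 17.3 to 30.1 in HIGH and 10.1 through 14.3 to 21.1 in LOW (0.40 ± 0.16, adjusted p = 0.861), and miR-679-5p had 185 through 204 to 242 and 138 through 177 to 224 (0.21 ± 0.10, adjusted p = 0.981). By the same rule of smallest p, miR-381-5p was at -0.29 ± 0.15 and miR-539-5p at -0.21 ± 0.13, both with an adjusted p of 0.981. The arms of miR-381 thus had fitted differences of opposite sign.

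**Figure D3:**
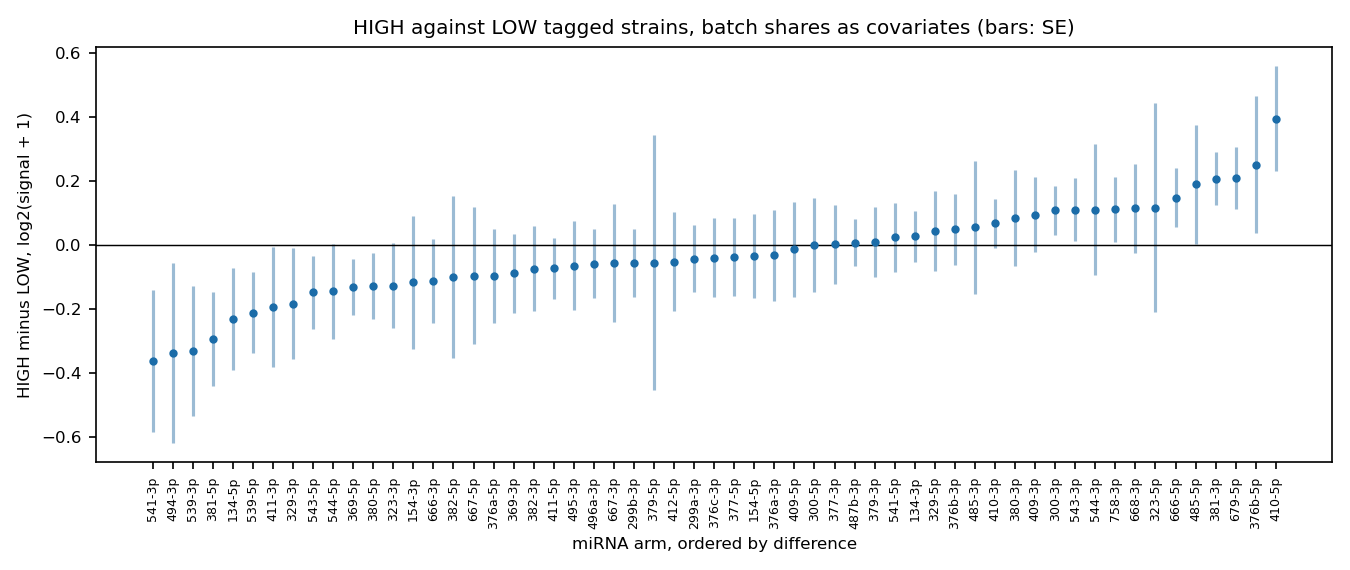
Fitted HIGH minus LOW difference on the log2(signal + 1) scale for the 57 tested arms, ordered by size, with bars of 1 SE. The points run from -0.36 to 0.40 around 0, and none passed the adjusted test.

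Although the members are thought to come from a common primary transcript, their mature levels rose and fell together little over strains. After batch shares were removed by a linear fit, the median Pearson's r over 1596 pairs of members was 0.04 (SD of the pairs 0.31), beside 0.00 over all pairs of features. Above 0.5 were 7.83% of member pairs (125), beside 5.37% of all pairs. Below -0.5 were 3.57% of member pairs (57), beside 3.84%. With values as deposited the median was again 0.04. Above 0.5 were then 16.73% of member pairs, beside 14.4% of all pairs. Below -0.5 were 14.22% of member pairs, beside 13.54%. All pairs share the same strains, so they are not independent.

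The median r was slightly higher for hairpins that lie close than for distant ones. The differences were small beside the SD of 0.31 over pairs and were not tested. The median r was 0.17 for the 23 pairs of arms of 1 hairpin. Between arms of different hairpins, with miR-299b left out, it was 0.10 for 77 pairs up to 1 kb apart. It was 0.07 at 1 to 5 kb, 0.02 at 5 to 20 kb and 0.03 at 20 to 40 kb. The overlapping miR-299a-3p and miR-299b-3p had the highest r, 0.996. Next came miR-380-3p with miR-376a-3p (r = 0.891, 12 kb apart) and miR-376a-5p with miR-369-3p (r = 0.851, 19.6 kb apart). Among the 8 strains wholly in batch 5, these pairs had an r of 0.999, 0.929 and 0.994.

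The lowest were miR-544-5p with miR-409-3p (r = -0.743), miR-329-3p with miR-299b-3p (r = -0.712) and miR-329-3p with miR-299a-3p (r = -0.709). In the 8 strains of batch 5 the first was at 0.096 and the others at -0.874 and -0.878. The map of correlations holds pairs of both signs rather than 1 common block. As an example, 9 arms were picked from these same values of r, so positive values among them were set by the choice. They were miR-380-3p, the 3p arms of miR-376a, miR-376b, miR-376c and miR-377, and both arms of miR-544 and miR-154. Their 36 pairs had r from 0.354 to 0.891. miR-409-3p had an r below -0.5 with 11 members, miR-485-5p with 10 and miR-667-5p with 8.

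**Figure D4:**
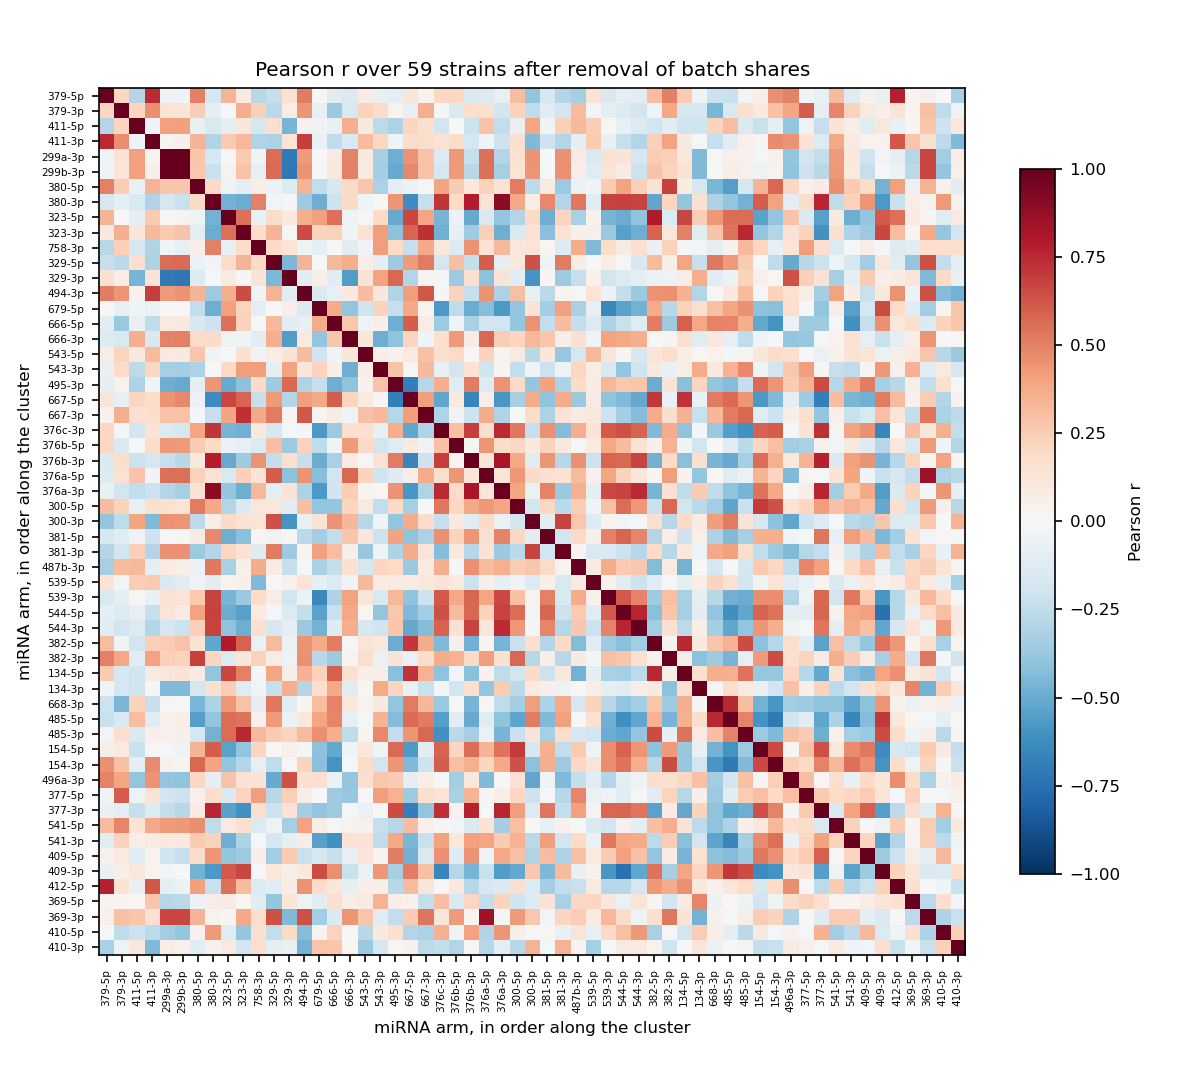
Pearson's r over 59 strains, after removal of batch shares, for each pair of the 57 tested arms in their order along the cluster, from blue (-1) to red (1). Red and blue cells both occur, and the median off the diagonal is 0.04.

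Of 23 arm pairs with both arms tested, 17 had an r above 0 and 7 passed a permutation test of r after Benjamini-Hochberg adjustment over the 23 pairs. The 5 positive pairs were miR-544 (r = 0.761, rho = 0.762), miR-154 (0.662 and 0.574), miR-323 (0.550 and 0.528), miR-485 (0.497 and 0.353) and miR-667 (0.420 and 0.453). The first 3 had a p of 1e-05, the smallest that 100000 permutations can give, with an adjusted p of 7.67e-05. Adjusted p was 0.000518 for miR-485 and 0.00333 for miR-667. Without the 2 strains farthest from the median of the 5p arm, r was 0.711, 0.585, 0.543, 0.456 and 0.448.

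In 2 hairpins the arms moved in opposite directions: miR-329 (r = -0.449, rho = -0.434, adjusted p = 0.00175) and miR-409 (r = -0.355, rho = -0.276, adjusted p = 0.0202 for r and 0.098 for rho). Without the 2 farthest strains they were at -0.431 and -0.406. Within the 8 strains of batch 5, miR-409 was at 0.317 and miR-154 at -0.348, opposite to their values over all strains. miR-329 was there at -0.768, miR-544 at 0.399, miR-323 at 0.441 and miR-667 at 0.558. miR-485 was only at 0.042. None of the leading hairpins passed, with an r of -0.041 for miR-411, -0.180 for miR-300, -0.194 for miR-381, 0.228 for miR-541 and 0.240 for miR-410. Within the 8 strains of batch 5 they were at -0.235, 0.631, -0.548, 0.312 and 0.719, so miR-300 turned its sign.

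Other miRNAs of the same domain, outside the cluster, gave 33 features from a list made with earlier results of these data known. Of 28 tested, 24 passed the batch test, a share near the 86.7% of all features. Their median r was 0.06 among themselves and 0.01 with the members. The features outside the cluster most like the mean of the z-scored members over 59 strains were miR-137-3p (r = 0.639), miR-431-5p (0.598), which lies in the same domain, miR-29c-3p (0.561), miR-188-5p (0.557) and miR-29a-5p (0.530).

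miRNA markers of brain cell types and of nearby tissues were summed for each strain. After batch shares were removed, their r with the cluster's sum ran from -0.268 for the 2 oligodendrocyte miRNAs to 0.194 for endothelial miR-126a, with 0.127 for the 5 neuronal miRNAs. On the values as deposited, where batches also differ, r was larger: -0.626 for oligodendrocyte, -0.600 for muscle and vessel wall, -0.525 for neuronal and 0.483 for blood miRNAs. In the 8 strains of batch 5, the sum of 3 hindbrain and spinal cord miRNAs had an r of 0.901 with the cluster and miR-126a 0.858. In bulk tissue, fewer cells of a type and less RNA per cell cannot be told apart. The part of cell composition in the levels was not tested.

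miR-379-5p, which names the cluster's first hairpin, varied most between strains after batch removal, with an SD of 0.80 on the log2 scale beside a median of 0.275 over members and 0.306 over all features. It stood at 6465 in LXS110, 5514 in LXS23, 5129 in LXS90 and 2862 in LXS25. The other 55 strains ran from 224 through a median of 669 to 1212 (LXS8), so a gap separated the 4. LXS90 is 1 of the 2 strains with a conflicting library label.

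The 3p arm of the same hairpin did not share this gap: miR-379-3p stood at 1323, 1147, 1480 and 1757 in these 4 strains and ran from 804 to 1508 in the others. The next hairpin, miR-411, differed by arm as well. miR-411-3p was at 4818, 6398, 5629 and 3010 in LXS110, LXS23, LXS90 and LXS25, beside 1334 to 3970 in the others. miR-411-5p was at 89258, 85709, 106437 and 92813, beside 66683 to 133485. For miR-411-3p, LXS110, LXS23 and LXS90 stood above all other strains, while LXS25 lay below LXS43 (3970). Neither miR-379-3p nor miR-411-5p set the 4 strains apart as a group, though miR-379-3p was highest in LXS25.

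The features most like miR-379-5p over strains were chosen after values were seen, as were the letters searched in them. The first was miR-206-3p, a muscle miRNA that is outside the cluster (r = 0.839), at 209, 154, 271 and 24.2 in the 4 strains and at most 20.8 in the others. miR-24-3p, an abundant miRNA of many tissues, was at 32047, 46915, 34148 and 32127 beside at most 20299. Most others of the 10 stood apart in LXS110, LXS23 and LXS90 but not in LXS25. miR-185-5p was at 2568, 2362, 1797 and 592 beside at most 937, and miR-7b-5p at 1830, 2255, 1545 and 268 beside at most 427. miR-876-5p stood apart in LXS23 alone, at 93.5 beside at most 34.9 outside the 4 strains. Only miR-412-5p (r = 0.781) and miR-411-3p (r = 0.746) of the 10 were members, and miR-412 lies at the other end of the cluster. miR-412-5p was at 157, 161, 139 and 122 beside 50.4 to 114. Of the 9 of these 10 with a sequence, 5 began with UGG, as miR-379-5p does, beside 2.6% of 533 tested features and 5.7% of 53 members. Those 5 are printed with miR-379-5p, with these 3 bases in capitals.
miR-379-5p: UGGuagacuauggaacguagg
miR-206-3p: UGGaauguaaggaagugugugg
miR-412-5p: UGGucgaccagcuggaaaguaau
miR-7b-5p: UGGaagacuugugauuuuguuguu
miR-876-5p: UGGauuucucugugaaucacua
miR-24-3p: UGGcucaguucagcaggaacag

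Beyond these 3 bases the sequences come from different families. Shared letters describe this list and do not show what links the levels. As general knowledge of the TruSeq small RNA kit, which the labels name, its 3′ adapter begins with the same 3 letters, read as DNA. How adapters were trimmed is not stated for these tables, and the part of trimming in the values of miR-379-5p and the features like it was not tested.

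**Figure D5:**
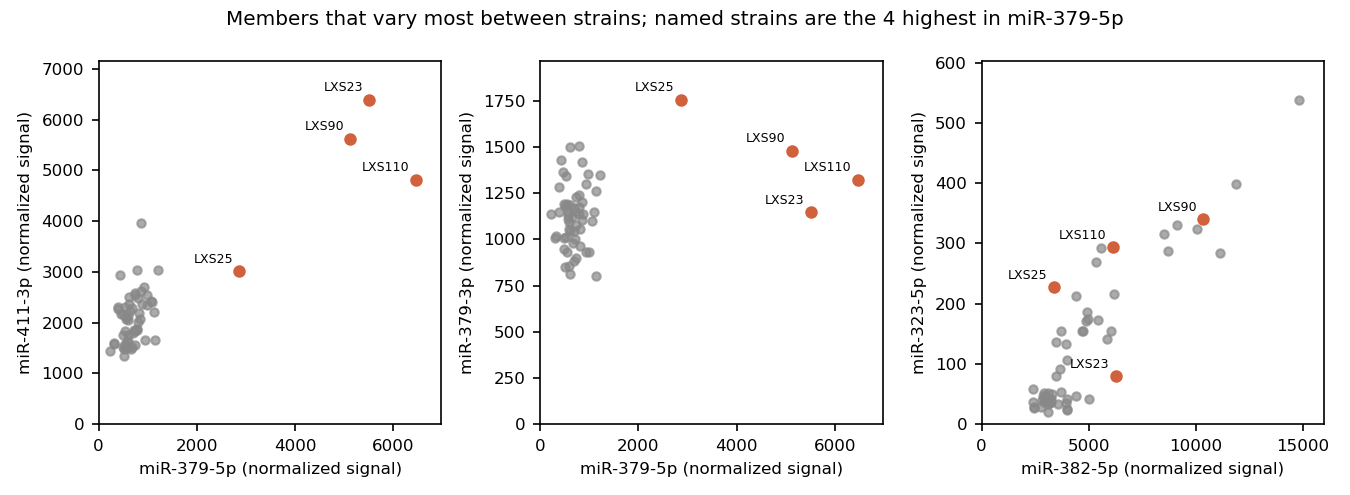
Normalized signal of miR-411-3p and of miR-379-3p against miR-379-5p, and of miR-323-5p against miR-382-5p, with 1 point per strain and the 4 strains highest in miR-379-5p in orange. The 4 strains lie apart along miR-379-5p, from 2862 to 6465, while miR-379-3p in them, from 1147 to 1757, largely overlaps with the other strains.

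Among members with a mean of at least 1000, miR-382-5p varied most after batch removal, with an SD of 0.51. It was highest in LXS32 (14809), LXS8 (11856), LXS22 (11127), LXS90 (10344) and LXS19 (10070), with a median of 3917 and a lowest value of 2410 in LXS86. The highest strains were not those of miR-379-5p, except LXS90. Its 3p arm stood at 388, 842, 420, 685 and 314 in these 5 strains, around its median of 536.

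Most like miR-382-5p were miR-137-5p (r = 0.858), let-7c-5p (0.832), let-7b-5p (0.796) and the members miR-323-5p (0.795), miR-134-5p (0.754) and miR-667-5p (0.705). In LXS32, LXS8, LXS22, LXS90 and LXS19, miR-323-5p was at 539, 398, 284, 341 and 324, all far above its median of 58.9. All 5 strains had libraries in batch 3, where miR-323-5p was also high. The 10 features most like miR-382-5p and the letters searched in them were also chosen after values were seen. Counts of these letters describe this list only. Of the 10, 8 held GUGG at any position, as miR-382-5p does. The share was 8.8% of all tested features with a sequence and 13.2% of members. Those of the 8 in the cluster are printed below miR-382-5p, with these letters in capitals where they are first found.
miR-382-5p: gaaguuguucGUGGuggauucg
miR-323-5p: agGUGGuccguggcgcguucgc
miR-667-5p: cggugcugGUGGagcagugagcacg

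miR-376b-5p, the arm with the largest batch F, also begins with these letters, but of the 10 features most like it 2 of 10 held them. Sequence was read on the miRNA strand only. UGG lies within GUGG, so the same letters of the kit's adapter occur in miR-382-5p and in 8 of the 10 features most like it. Of those 10, 0 began with UGG, and how many features hold UGG at any position was not counted. The part of trimming in the values of miR-382-5p and the features like it was not tested either.

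Of the other members with a large SD after batch removal, miR-323-5p was at 0.66, miR-494-3p at 0.58, miR-541-3p at 0.46 and miR-154-3p at 0.45. miR-494-3p was again high in LXS23 (142), LXS110 (127) and LXS90 (80.0), beside a median of 34.7. miR-154-3p ran from 45.2 (LXS19) through 138 to 371 (LXS23), and miR-541-3p from 3.19 (LXS25) through 18.4 to 28.3 (LXS39).

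At the steady end of the same class, the SD after batch removal was 0.14 for miR-487b-3p, 0.15 for miR-410-3p and miR-300-3p, and 0.17 for miR-369-5p and miR-381-3p. miR-487b-3p ran from 9302 (LXS13) through 12687 to 15247 (LXS73), a ratio of 1.64 between the highest and lowest strain, beside 28.9 for miR-379-5p.

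The mRNA table allowed a comparison of the parents of the panel at the host transcripts and the genes around them. ILS minus ISS was fitted by limma over 20617 genes, of which 3.39% were called higher and 4.21% lower. Of 12 listed genes of the domain and its regulation, 11 had a row and 10 were tested, and 1 was called higher and 0 lower. Set 1 held 3 profiles of both parents; the remaining 3 of ILS and of ISS came from separate sets with no other strain used here.

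Rian, a maternally expressed noncoding RNA of the domain, was at 10.07, 10.17, 9.96, 10.14, 10.04 and 9.99 (log2) in ILS profiles 1 to 6. In ISS it was at 9.86, 9.97, 9.77, 9.93, 9.80 and 9.78. The means were 10.06 ± 0.08 and 9.85 ± 0.08 (SD, n = 6 each; limma), a difference of 0.21 ± 0.05 (SE, adjusted p = 0.0149), and the groups overlapped at 9.96 in ILS and 9.97 in ISS. The difference was 0.19 within set 1 (adjusted p = 0.334) and 0.22 in the later sets (adjusted p = 0.151). In the later sets each parent had a set of its own, so strain and set cannot be told apart there. The fit over all profiles had no term for set. LXS41 was at 9.78 ± 0.12 (n = 5) and LXS80 at 10.01 ± 0.09 (n = 6).

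Mirg, which hosts miRNAs of the cluster, was at 9.53, 9.69, 9.44, 9.63, 9.51 and 9.48 in ILS and 9.46, 9.46, 9.38, 9.52, 9.47 and 9.30 in ISS. The groups overlapped, and the difference of 0.12 ± 0.05 did not pass (adjusted p = 0.209). Meg3, another maternal noncoding RNA, had a difference of 0.07 ± 0.05 (adjusted p = 0.479). The paternally expressed Dlk1 and Rtl1 were at -0.04 ± 0.07 and -0.06 ± 0.05 (adjusted p of 0.798 and 0.562), and Dio3 lay under the filter, with means of 5.80 and 5.72.

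Mef2c, a transcription factor of the Mef2 family, had a difference of 0.22 ± 0.07 (adjusted p = 0.0513). Mef2d was at 0.09 ± 0.05 and Mef2a at -0.01 ± 0.03, with adjusted p of 0.281 and 0.911. Drosha and Dgcr8, which together cut hairpins from primary transcripts, were at 0.02 ± 0.04 and -0.02 ± 0.04 (adjusted p of 0.863 and 0.797). The table also has rows for the genes Mir154, Mir300, Mir323, Mir376c, Mir411 and Mir412, and 0 of these 6 passed. Their differences ran from -0.21 ± 0.18 for Mir300 to 0.29 ± 0.17 for Mir154, with adjusted p from 0.338 to 0.993. The sources used here do not say what is detected for so short a gene. No miRNA value of ILS or ISS was analysed, so these differences cannot be set beside mature levels of the parents.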

How the data were processed

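The authors deposited a table of normalized signal and a variance-stabilized log2 table with 1 value per strain, per the file headers; the sources used here do not give the scaling. Sums of signal per strain ran from 12164326 to 15093719, and read depth is unknown. Libraries were made with the TruSeq small RNA kit, per the labels' protocols. The deposited mRNA log2 values were used for 23 columns whose names show a labelled strain, and 376 columns were not used. The sources used here do not name their platform, and p-values measure the spread between profiles as named.

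Features with a mean of at least 10 entered limma 3.58.1 (R 4.3.3, trend and robust) on log2(signal + 1), adjusted by Benjamini-Hochberg over all features with a threshold of 0.05. mRNA genes at or above 6 in at least 5 profiles were kept. A fold on the log2(signal + 1) scale understates low features. Permutation tests were two-sided (numpy 2.4.6, 100000 permutations), with ranks from scipy 1.17.1. The scripts were tested on simulated data.

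The members and lists were chosen with earlier results of these data known. Named members are those with a mean of at least 1000, of the others the 6 smallest p for batch, 4 for HIGH minus LOW and 5 largest SD, hairpins with both arms at 100 or more, and the 3 highest and 3 lowest pairs. Other arms, and those most like miR-379-5p and miR-382-5p, were named after their values were seen.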

Additional observations from a re-analysis of the deposited data

Results flagged for a closer look

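In groups of 4 to 10 strains or profiles, a value was listed when its gap to the nearest other value was large for the group's range (Dixon's test at 95%). Of 182 groups examined, 12 were listed, and chance alone lists about 1 in 20 groups.

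Among HIGH strains, miR-379-5p was 2862 in LXS25, where the next strain was at 1138. Among MED strains it was 5129 in LXS90 (next 1130), and among LOW strains 6465 in LXS110 (next 991). In LXS110, miR-411-3p was also highest of the LOW strains, at 4818 (next 2944), as was miR-494-3p at 127 (next 63.0).

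Among HIGH strains LXS32 was highest in miR-382-5p at 14809 (next 5431) and in miR-323-5p at 539 (next 269). miR-134-3p was highest in LXS94 at 423 (next 349), and miR-668-3p was highest of the LOW strains in LXS99 at 13776 (next 7927).

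In the mRNA table, Mir300 was lowest in ILS profile 3 at 6.79 (next 7.55, log2) and highest in LXS80 profile 3 at 8.27 (next 7.67). Mir323 was highest in LXS41 profile 3 at 7.47 (next 6.97).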

How the results depend on the processing

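Members past the batch test numbered 48 to 53 of 57 under another pseudocount, the variance-stabilized table, centring, batch as a factor, and without LXS9 and LXS90. They were 58 of 64 with no filter and 43 of 46 at a mean of at least 100. Of 37 named members, 5 lost the batch call under at least 1 alternative: miR-379-3p, miR-300-3p, miR-668-3p, miR-369-3p and miR-410-3p. HIGH minus LOW gave 0 calls in each. At an unadjusted p under 0.05, the variance-stabilized values had 3 members higher and 2 lower, beside 19 and 26 of all 647 features. The median r between members lay between 0.025 and 0.074. Pairs below -0.5 were 1.44% (23) on the variance-stabilized values and 16.04% (256) in the 8 strains of batch 5, where 24.12% were above 0.5, beside 2.34%, 15.45% and 15.85% of all pairs. On the variance-stabilized values 6.7% of member pairs were above 0.5, beside 3.42% of all pairs. With centring, 9.34% were above 0.5 and 3.07% below -0.5, beside 5.95% and 3.09% of all pairs. Without the 4 strains highest in miR-379-5p, an alternative chosen after seeing the data, 51 of 57 members passed the batch test and the median r was 0.025. The median cluster share was 5.77% without LXS9 and LXS90 and over features with a miRNA name alone, as over all. The count of domain genes higher in ILS was 0 within set 1 and 0 in the later sets, where fewer profiles entered, and 2 with profiles centred on the median. Leaving out 1 parent profile in turn gave 1 to 2; Mef2c joined Rian without ILS profile 1 (adjusted p = 0.0291), ILS profile 3 (0.0362) or ISS profile 3 (0.0179). No paired analysis was possible because the miRNA tables hold 1 value per strain and the mRNA columns carry animal numbers that the labels do not. The unknown read depth limits the low arms most.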
